A study of Mus musculus castaneus and Mus musculus domesticus and Mus musculus with 11 samples.

Results

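The mouse IGF1 receptor gene, 6 genes for secreted IGF binding proteins and 3 genes for IGF2 mRNA-binding proteins were followed across motor neurons of 3 mouse lines. The 10 genes were Igf1r, Igfbp2 to Igfbp7 and Igf2bp1 to Igf2bp3, found by mouse Ensembl gene ID among the 27071 genes of the read matrix. All 10 were present, and all 10 passed the filter on low counts that left 14839 genes for testing. They were described across the 3 lines because the lines differed in reads of Igf2, the ligand that these proteins bind or, for the mRNA-binding proteins, whose transcript they bind.

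The lines were a CASTx129 hybrid labelled 129CAS, CAST/EiJ (called CAST here), a wild-derived strain of the subspecies castaneus, and 129S6/SvEv (called 129 here), a laboratory strain. Each had 3 RNA-seq libraries, and all 9 came from cells labelled as motor neurons, made by differentiation of cultured lines to compare the transcriptional identity of those lines. The labels name no treatment or genetic change and give neither the direction of the cross nor the number of clones behind each line. Whether the libraries of 1 line are separate cultures is not stated either, and the spread behind each p-value may therefore be technical. The labels list 2 further CAST samples that were not analysed here.

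IGF1 and IGF2 are secreted growth factors that signal through IGF1R, a receptor tyrosine kinase, while IGF2R carries IGF2 to the lysosome. The IGF binding proteins hold the ligands in the extracellular space, where they can withhold them from the receptor or deliver them to it, and proteases release the ligands again. The IGF2BP proteins are cytoplasmic RNA-binding proteins of the embryo and of many tumours, named for their binding to the Igf2 transcript, and IGF2BP1, also known as ZBP1, carries beta-actin mRNA into growing axons.

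The binding proteins IGFBP2 to IGFBP5 share a cysteine-rich stretch in their amino-terminal, ligand-binding domain. The coding bases of that stretch are shown to place the 4 genes in 1 family, read on the coding strand from GENCODE M21 transcripts on GRCm38. Capitals mark the codons of the fixed glycine and cysteine residues, and lower case marks the 2 codons that vary.
Igfbp2: GGCTGCGGCTGCTGCtccgtgTGC
Igfbp3: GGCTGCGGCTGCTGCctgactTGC
Igfbp4: GGCTGCGGTTGTTGCgccactTGC
Igfbp5: GGCTGTGGCTGCTGCatgactTGC
The motif searched was glycine, cysteine, glycine, cysteine, cysteine, any 2 residues and cysteine in the translated principal transcript. It was found in 9 of 18636 coding genes of the matrix, 0.0483%, which were Igfbp1 to Igfbp5 and Ccn1, Ccn2, Ccn5 and Ccn6, genes of the CCN family of matrix proteins. It was not found in Igfbp6 or Igfbp7, and that says only that these letters are not in those coding sequences.

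The IGF2BP genes are known for a different feature, matches in their 3′ untranslated regions to the seed of the let-7 microRNAs, which are low in embryonic cells and rise as they mature. The sites below are shown because Igf2bp1 holds several of them, and they are given in the transcript's direction with the 7-base match CTACCTC in capitals.
Igf2bp1 site 1: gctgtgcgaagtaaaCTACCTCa
Igf2bp1 site 2: cagcagtgctattaaCTACCTCa
Igf2bp1 site 3: gtataaatggatgaaCTACCTCa
Igf2bp1 site 4: acttttggttttaatCTACCTCt
Igf2bp2 site 1: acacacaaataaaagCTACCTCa
Igf2bp3 site 1: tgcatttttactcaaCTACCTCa
Searched on the transcript strand, Igf1r held 2 matches and Igfbp5 held 1, while Igfbp2, Igfbp3, Igfbp4, Igfbp6 and Igfbp7 held 0. A match was present in 8.54% of 17887 genes with a 3′ untranslated region and in 29.3% of the 1111 genes whose region spans at least 4000 bases. At least 3 matches were present in 24 genes, 0.134%, and in 16 of the 1111 genes with the longer region, 1.44%. The region of Igf2bp1 spans 6337 bases. A match is a description of the sequence and not a measured site, and let-7 itself was not measured.

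Total counts ran from 7763077 to 18167577 a library. The 11 listed motor neuron markers were all present in every line, with a summed level of 3254 to 9273 CPM in hybrid, 4048 to 10967 CPM in CAST and 3322 to 7999.7 CPM in 129 libraries. The list also holds Isl2, Olig2, Nefl, Nefm and Prph, which are not given singly. The markers given singly below make up a small part of the sum. Mnx1, a transcription factor of postmitotic motor neurons, ran from 0.495 to 4.88 CPM (the counts of a gene scaled to a common library total), Lhx3 from 0 to 2.13 CPM, Isl1 from 13.1 to 62.7 CPM and Chat, the acetylcholine-synthesising enzyme, from 5.52 to 28.4 CPM. The choline transporter gene Slc5a7 reached 258 CPM and the vesicular transporter gene Slc18a3 126 CPM. Markers of fibroblasts and mesenchyme were also present, with all 14 listed genes above 0 in every line and a summed level of 6189 to 45456 CPM in hybrid, 8187 to 14788 CPM in CAST and 9199 to 36914 CPM in 129 libraries. The 9 listed markers of radial glia and progenitors, which share Vim with that list, were present too. Their sum was 3560 to 6186 CPM in hybrid, 3658 to 3924 CPM in CAST and 1290 to 3621 CPM in 129 libraries. In cell mixtures of this kind fewer cells of a type and less RNA per cell cannot be told apart. In 3 libraries, reads lay more on genes with short transcripts: per doubling of exon length the relative log2 level fell by 0.49 in CAST 1, by 0.60 in hybrid 2 and by 0.25 in hybrid 3, against slopes of 0.07 to 0.31 in the other 6 libraries.

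Igf2 itself had 77.7, 99.1 and 25.9 CPM in hybrid libraries, 23.7, 25.3 and 12.2 CPM in CAST libraries, and 1701, 1437 and 555 CPM in 129 libraries. Relative to 129 it fell by 4.19 ± 0.70 (SE) on the log2 scale in the hybrid (adjusted p = 0.00658) and fell by 5.91 ± 0.76 in CAST (adjusted p = 0.00994, and 0.0684 without CAST 2), in edgeR's quasi-likelihood test with Benjamini-Hochberg adjustment. Of the Igf2 exon bases, 62.8% are shared on the same strand with the annotated gene Gm49394, so reads of the 2 genes cannot be told apart there. Against that difference in the ligand, 0 of the 10 receptor, binding protein and mRNA-binding protein genes passed an adjusted p of 0.05 in any comparison between lines.

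**Figure D1:**
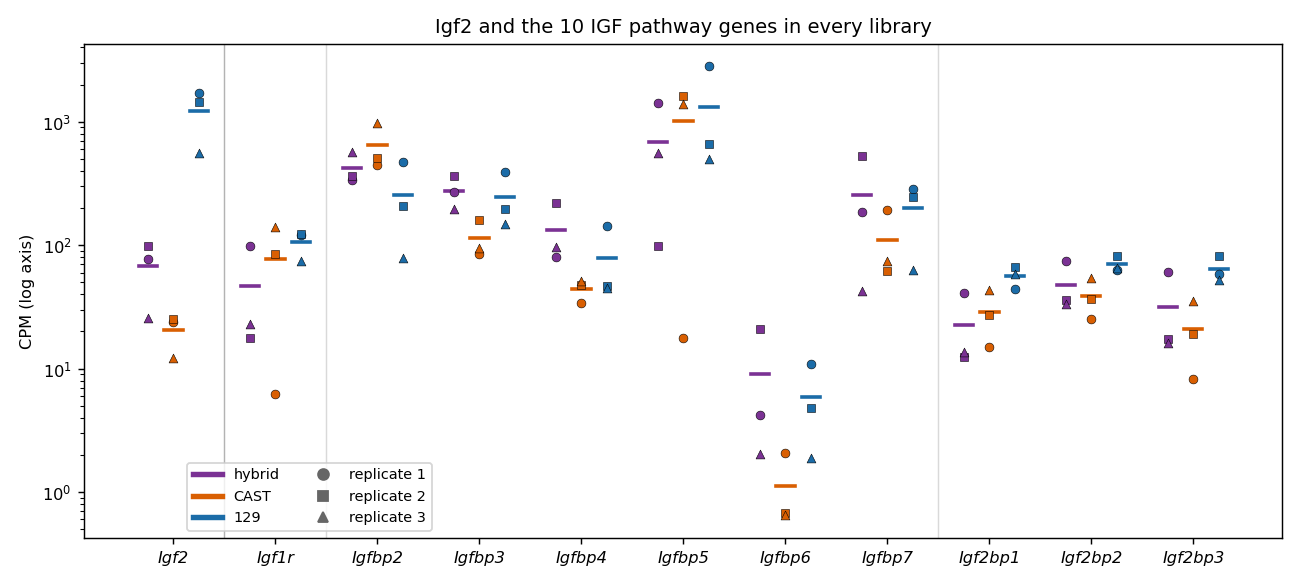
CPM on a log axis of Igf2, Igf1r, the 6 Igfbp genes and the 3 Igf2bp genes in each of the 9 libraries, with a bar at the mean of each line. The 129 libraries stand far above both other lines for Igf2, while the other 10 genes show smaller differences, with the 3 Igf2bp genes lower in every CAST library than in every 129 library and Igfbp3 and Igfbp4 higher in every hybrid library than in every CAST library.

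The comparisons between lines share libraries, each line serving in 2 of them, so their values are given side by side and are not independent. In CAST against 129, the edgeR test called 0 members, against 0.391% of all tested genes higher and 0.526% lower. Unadjusted p was under 0.05 for 3 members, Igfbp3, Igfbp6 and Igf2bp3, against 14.6% of all genes. The median log2 fold change of the members was -0.86 against 0.06 over all genes, and 9 of the 10 were negative, as were 46.6% of all genes. The exception was Igfbp2.

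In hybrid against 129, the edgeR test called 0 members, against 5.41% of all genes higher and 1.6% lower, and 1 member, Igf2bp1, had an unadjusted p under 0.05, against 22.2% of all genes. The members' median log2 fold change was -0.19 against 0.02 over all genes. In hybrid against CAST, it again called 0 members, against 4.41% higher and 1.6% lower, and 3 members, Igfbp3, Igfbp4 and Igfbp6, had an unadjusted p under 0.05, against 15.8%. Their median there was 0.45 against -0.08 over all genes.

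The hybrid was also set against the midparent, that is, the average of the log2 levels of CAST and 129. The edgeR test called 0 members, against 5.88% of all genes higher and 1.46% lower, and 2 members, Igfbp4 and Igfbp6, had an unadjusted p under 0.05, against 18.4%. The members' median was -0.03, against -0.02 over all genes. DESeq2 called 1 member, Igfbp6 in hybrid against CAST (adjusted p = 0.0135), where it called 1597 of the 14839 tested genes. The limma-voom test called 0 members in each of the 4 comparisons.

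**Figure D2:**
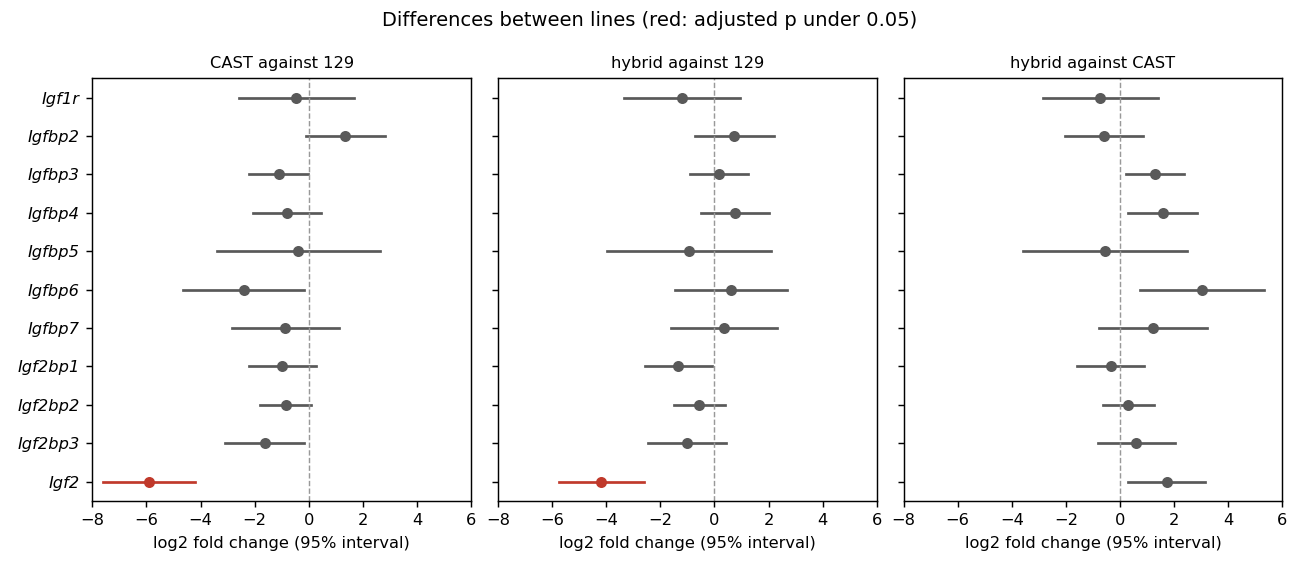
Log2 fold change with its 95% interval for the 10 genes and Igf2 in CAST against 129, hybrid against 129 and hybrid against CAST, from the edgeR fit to all 9 libraries. Red marks an adjusted p under 0.05, which Igf2 reached in both comparisons with 129 and none of the 10 genes reached; the widest intervals are those of Igfbp5.

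The receptor gene Igf1r (chr7:67952827-68233668, plus strand, GRCm38) had 98.1, 17.7 and 22.9 CPM in hybrid libraries, 6.19, 84.6 and 139 CPM in CAST libraries, and 121, 122 and 73.9 CPM in 129 libraries. CAST 1 was the lowest of all and CAST 3 the highest, so the CAST libraries alone spanned 22.5-fold and enclosed every library of the other lines. The 95% interval of the log2 fold change ran from -2.58 to 1.66 in CAST against 129 (estimate -0.46), from -3.34 to 0.96 in hybrid against 129 (-1.19) and from -2.86 to 1.40 in hybrid against CAST (-0.73). With CAST 1 and hybrid 2 left out, the CAST against 129 estimate was 0.06.

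The other receptor genes were not called either. Igf2r, the clearance receptor, had 212, 13.1 and 34.0 CPM in hybrid, 4.23, 87.1 and 174.5 CPM in CAST, and 431, 562 and 307.5 CPM in 129 libraries. Both lines lay wholly below 129, with log2 fold changes of -2.33 ± 1.23 (SE) in hybrid against 129 and -2.29 ± 1.22 in CAST against 129, and adjusted p-values of 0.287 and 0.402 in edgeR's quasi-likelihood test with Benjamini-Hochberg adjustment. The insulin receptor gene Insr likewise lay wholly below 129 in both lines, at 59.1, 14.3 and 21.9 CPM in hybrid, 4.54, 36.2 and 49.7 CPM in CAST, and 67.7, 89.3 and 101 CPM in 129. The ratio of Igf2r to Igf1r counts was 2.16, 0.740 and 1.48 in hybrid, 0.683, 1.03 and 1.25 in CAST, and 3.57, 4.599 and 4.16 in 129 libraries, again with no overlap between 129 and either other line. This ratio was not tested.

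Igfbp2 and Igfbp5 are neighbours on chromosome 1, 5457 bases apart and pointing towards each other (Igfbp2 chr1:72824503-72852474, plus strand; Igfbp5 chr1:72857932-72874884, minus strand). IGFBP2 is the main binding protein of the developing nervous system and of cerebrospinal fluid. Igfbp2 had 339, 365 and 567 CPM in hybrid, 449, 508 and 978 CPM in CAST, and 474, 207 and 79.2 CPM in 129 libraries. It was the 1 member with a higher mean in CAST than in 129, at 645 ± 290.0 against 253 ± 201 CPM (SD, n = 3 each), but 129 1 lay inside the CAST range. In CAST against 129 its log2 fold change was 1.35, with a 95% interval from -0.11 to 2.81.

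Igfbp5, whose protein binds bone and extracellular matrix as well as IGFs, varied most of the 10 genes. It had 1408, 99.2 and 554 CPM in hybrid, 17.7, 1611 and 1399 CPM in CAST, and 2804, 659.8 and 499 CPM in 129 libraries. The CAST libraries spanned 91.2-fold, with CAST 1 far below CAST 2 and CAST 3, and the hybrid libraries spanned 14.2-fold with hybrid 2 lowest. The log2 fold change in CAST against 129 was -0.39 (95% interval -3.40 to 2.63), and it was 0.14 without CAST 1 and hybrid 2.

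The 2 neighbours did not keep a fixed proportion. The log2 ratio of Igfbp2 to Igfbp5 counts was -2.05, 1.88 and 0.03 in hybrid, 4.67, -1.66 and -0.52 in CAST, and -2.57, -1.67 and -2.65 in 129 libraries. Igfbp5 therefore had more reads than Igfbp2 in each 129 library, while CAST 1, hybrid 2 and hybrid 3 had more reads of Igfbp2.

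The shift in CAST 1 and hybrid 2 was set beside that of genes of similar exon length. Igfbp5 was lower in CAST 1 than in the mean of CAST 2 and CAST 3 by a log2 difference of -6.40, where the median of 743 genes in the same length class was -0.45. In hybrid 2 its difference from the mean of hybrid 1 and hybrid 3 was -3.15, with a class median of -0.42. Igf1r had a difference of -4.10 in CAST 1 against a class median of -2.17, and -1.41 in hybrid 2 against -1.27. Igf2bp1 had -1.20 in CAST 1, equal to its class median of -1.20. Igf2bp2 had -0.79 against -0.83, and Igf2bp3 had -1.63 against -0.97. In hybrid 2 the differences were -0.94 for Igf2bp1 against a class median of -0.83, -0.47 for Igf2bp2 against -0.68 and -0.85 for Igf2bp3 against -0.73. Igfbp2 had -0.65 in CAST 1 against a class median of 1.11, and -0.26 in hybrid 2 against 0.87. Igfbp3 had -0.54 in CAST 1 against 0.47, and 0.64 in hybrid 2 against 0.28. Igfbp4 had -0.54 in CAST 1 against -0.04, and 1.34 in hybrid 2 against -0.02. Igfbp5 lay furthest below the genes of like length in both libraries. Igf1r, Igfbp2, Igfbp3, Igfbp4 and Igf2bp3 lay below them in CAST 1 by smaller margins.

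**Figure D3:**
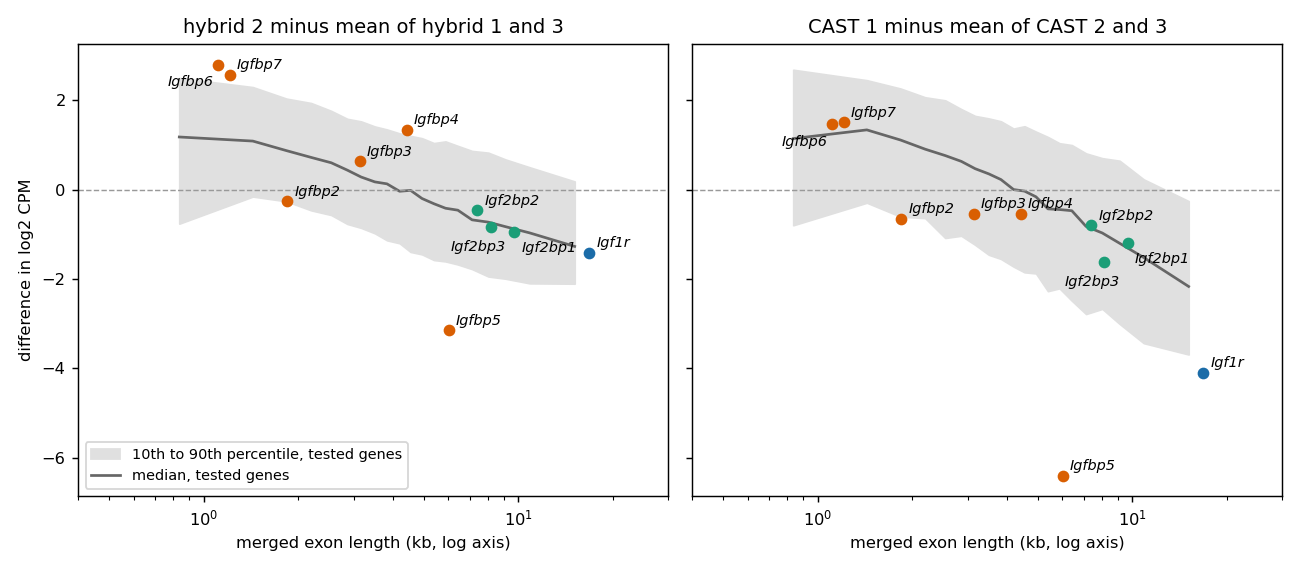
Difference in log2 CPM between hybrid 2 and the mean of hybrid 1 and 3, and between CAST 1 and the mean of CAST 2 and 3, for the 10 genes against merged exon length in kb on a log axis. The line is the median and the band the 10th to 90th percentile of tested genes in classes of length. Igfbp5 lies below the band in both panels, at -3.15 and -6.40. Igfbp2 lies just below it in CAST 1, and Igfbp4, Igfbp6 and Igfbp7 lie above it in hybrid 2. Igf1r, at -4.10 in CAST 1, also lies below the 10th percentile of its length class, -3.69.

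Igfbp3 and Igfbp4 had the hybrid libraries wholly above the CAST libraries, 2 members against 10.7% of all genes higher without overlap in hybrid against CAST, while 0 members lay lower without overlap, against 8.57%. Igfbp3 (chr11:7206086-7213923, minus strand) codes for the main IGF carrier of adult serum and had 271, 360.2 and 197 CPM in hybrid, 84.7, 161 and 93.9 CPM in CAST, and 391, 196 and 148 CPM in 129 libraries. The hybrid mean was 2.44 times the CAST mean. The log2 fold change was 1.29 in hybrid against CAST (95% interval 0.20 to 2.37, adjusted p = 0.211) and -1.11 in CAST against 129 (-2.19 to -0.03, adjusted p = 0.332) in the edgeR quasi-likelihood test with Benjamini-Hochberg adjustment. In hybrid against 129 it was 0.17, with an interval from -0.89 to 1.24, and the libraries overlapped.

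Igfbp4 (chr11:99041244-99054392, plus strand) codes for a binding protein that is cleaved by the protease PAPP-A. It had 79.5, 220.5 and 95.7 CPM in hybrid, 34.1, 47.8 and 51.5 CPM in CAST, and 142, 47.1 and 45.1 CPM in 129 libraries. The 129 spread came from 129 1, with 129 2 and 129 3 inside the CAST range. In hybrid against CAST the log2 fold change was 1.57 (95% interval 0.29 to 2.85), with an adjusted p of 0.192, and in hybrid against the midparent it was 1.16 (0.11 to 2.21), with an adjusted p of 0.219, both from edgeR's quasi-likelihood test with Benjamini-Hochberg adjustment. Igfbp3 and Igfbp4 were each other's closest member: centred on their own means, their log2 CPM differed by a root mean square of 0.433 over the 9 libraries.

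Igfbp6 (chr15:102144362-102149511, plus strand), whose protein prefers IGF2 over IGF1, was the weakest of the binding protein genes. It had 4.17, 21.1 and 2.03 CPM in hybrid, 2.06, 0.674 and 0.645 CPM in CAST, and 10.8, 4.82 and 1.90 CPM in 129 libraries, and the CAST values rest on 9 to 20 reads a library. The hybrid against CAST log2 fold change was 3.02 (95% interval 0.74 to 5.31), but hybrid 3 at 2.03 CPM lay just below CAST 1 at 2.06 CPM. Its adjusted p was 0.152 in edgeR's quasi-likelihood test and 0.0135 in DESeq2, and it ranged from 0.0135 to 0.522 over the alternatives, all with Benjamini-Hochberg adjustment. In hybrid against 129 the log2 fold change was 0.62 over all libraries and -0.91 without CAST 1 and hybrid 2.

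Igfbp7 (chr5:77349240-77408041, minus strand) codes for a secreted protein of vessels and connective tissue that binds IGFs weakly. It had 186, 529.5 and 42.7 CPM in hybrid, 192, 61.8 and 73.9 CPM in CAST, and 286, 246 and 62.9 CPM in 129 libraries, and all pairs of lines overlapped. Log2 fold changes were 0.35 in hybrid against 129 (95% interval -1.62 to 2.31) and -0.86 in CAST against 129 (-2.84 to 1.12). Igfbp6 and Igfbp7 were each other's closest member, at 0.793. Both were highest in hybrid 2 among the hybrid libraries, in CAST 1 among the CAST libraries and in 129 1 among the 129 libraries. Reads of hybrid 2 and CAST 1 lay more on short transcripts, and Igfbp6 and Igfbp7 have 1112 and 1209 exon bases. Set beside genes of similar exon length as above, Igfbp6 had 1.46 in CAST 1 against a class median of 1.14, and Igfbp7 1.51 against 1.33. In hybrid 2 they had 2.80 against 1.18 and 2.57 against 1.08. The part of exon length in these values was not tested. The summed fibroblast and mesenchyme markers were 45456, 16433 and 6189 CPM in hybrid, 8187, 11013 and 14788 CPM in CAST, and 36914, 34685 and 9199 CPM in 129 libraries, so this sum peaked in the same library as both genes in 129 but not in the hybrid or CAST. The 9 muscle markers summed to 89.998, 262 and 16.7 CPM in hybrid, 53.1, 18.4 and 19.1 CPM in CAST, and 253, 261 and 52.6 CPM in 129 libraries, with Myf5 at 0 in all of them. The muscle sum was thus highest in hybrid 2 and CAST 1, like both genes. Among the 129 libraries it was highest in 129 2, just above 129 1 where both genes peaked, and lowest in 129 3. The 9 radial glia and progenitor markers summed highest in hybrid 2, CAST 2 and 129 1, at 6186, 3924 and 3621 CPM. The motor neuron sum was highest in hybrid 3, CAST 1 and 129 3, at 9273, 10967 and 7999.7 CPM. The 9 pan-neuronal markers peaked in those same libraries, at 5360, 7315 and 6129 CPM. The 8 endoderm and hepatocyte markers peaked in hybrid 3, CAST 2 and 129 3. The part of any marker list in the Igfbp values was not tested. Of the 9 endothelial markers, Cldn5 was at 0 in all hybrid libraries, and the summed endothelial level ran from 21.7 to 45.7 CPM in hybrid, 13.6 to 43.5 CPM in CAST and 60.2 to 95.3 CPM in 129.

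Per kilobase of exon, the 6 binding protein genes can be set side by side. In 129 Igfbp5 led with 219.9 ± 214 CPM per kb, then Igfbp7 with 164 ± 98.5 and Igfbp2 with 137 ± 109 (SD, n = 3), 3 neighbours that did not differ beyond their spread. In CAST Igfbp2 led with 349 ± 157 CPM per kb, and in the hybrid Igfbp2 had 229 ± 67.4 and Igfbp7 209 ± 207. Igfbp3, Igfbp4 and Igfbp6 followed in that order behind the other 3 genes in every line.

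The makeup of the family differed between lines most in Igfbp2. It held 36.5 ± 19.5% of the summed binding protein reads per kb in hybrid, 52.7 ± 9.87% in CAST and 21.0 ± 2.57% in 129 libraries (SD, n = 3 each), and both other lines lay wholly above 129, whose highest library was at 22.8% against a lowest of 23.6% in hybrid and 41.9% in CAST. Igfbp3 held 12.9 ± 0.838% in hybrid, 5.81 ± 2.204% in CAST and 14.5 ± 4.78% in 129 libraries, with CAST wholly below both. Igfbp5 held 18.1 ± 16.3% in hybrid, 22.8 ± 20.4% in CAST and 32.8 ± 9.998% in 129, with wide overlap. The makeup was not tested.

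The summed level of the 6 genes was 680, 836 and 521 CPM per kb in hybrid, 441, 657 and 866 CPM per kb in CAST, and 1126, 503 and 237 CPM per kb in 129 libraries, and the lines overlapped. Divided by Igf2 per kb, the sum was 50.1, 48.3 and 115 in hybrid, 106, 149 and 407 in CAST, and 3.79, 2.004 and 2.45 in 129 libraries. Binding protein reads as counted thus exceeded Igf2 reads per kb in every library. With principal transcript length the ratio was 2.98, 1.58 and 1.94 in 129 libraries. How reads on Igf2 exon bases shared with Gm49394 were counted is not given, so the excess over Igf2 is uncertain in 129. The order of the lines in this ratio restates their difference in Igf2, for which the genes were followed, and is no separate result.

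**Figure D4:**
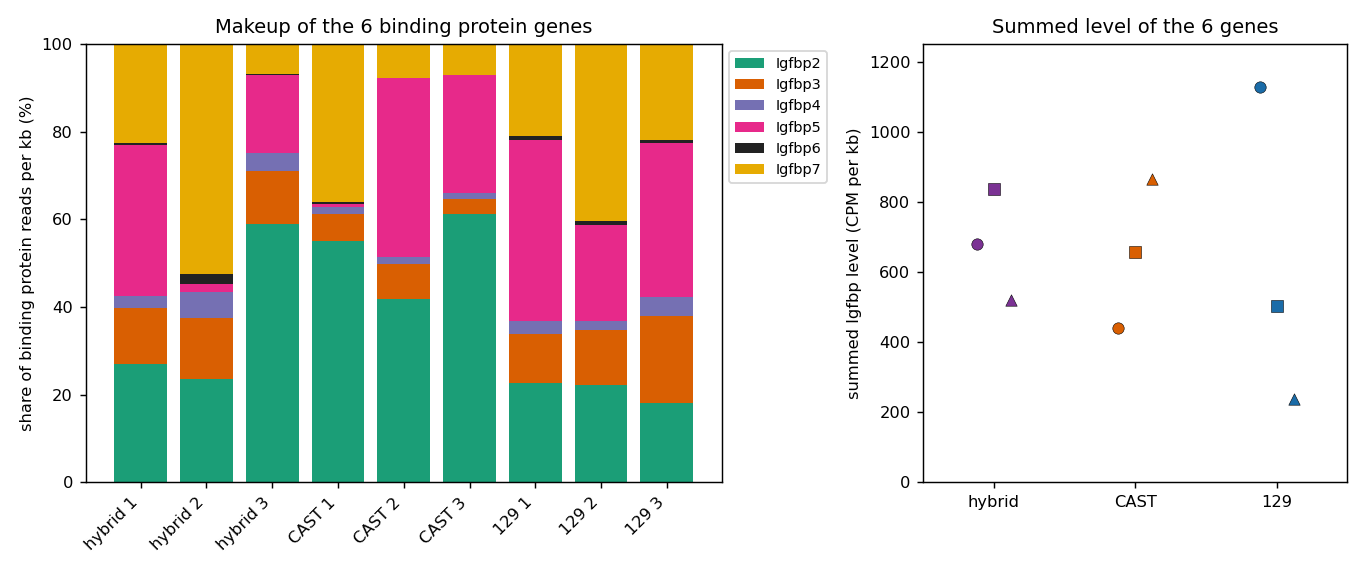
Left, the share of each of the 6 Igfbp genes in their summed reads per kb, as stacked bars for each library. Right, the summed level of the 6 genes in CPM per kb for each library, from 521 to 836 in hybrid, 441 to 866 in CAST and 237 to 1126 in 129 libraries, which overlap.

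The 3 Igf2bp genes were the members with the least spread within 129, and they were the members whose CAST libraries lay wholly below 129: 3 members, against 13.5% of all genes lower without overlap and 15.2% higher, where 0 members stood. In hybrid against 129, 1 member, Igf2bp1, lay wholly lower, against 16.9% of all genes, and 0 wholly higher, against 20.5%. None of the 3 passed an adjusted p of 0.05. With the trend in exon length removed from each library, CAST still lay wholly below 129 for all 3 genes. With an exon length offset in the fit, the log2 fold changes in CAST against 129 were -0.59 for Igf2bp1, -0.59 for Igf2bp2 and -1.40 for Igf2bp3. Without it they were -0.98, -0.86 and -1.62.

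Igf2bp1 (chr11:95957163-96005940, minus strand), with the 4 let-7 seed matches shown above, had 41.2, 12.3 and 13.7 CPM in hybrid, 14.9, 27.3 and 43.4 CPM in CAST, and 44.4, 66.0 and 58.8 CPM in 129 libraries. The highest hybrid and CAST libraries came close to 129 1, the lowest of 129. The log2 fold change was -1.33 in hybrid against 129 (95% interval -2.58 to -0.08) and -0.98 in CAST against 129 (-2.22 to 0.25). The hybrid against 129 adjusted p was 0.204 in edgeR's quasi-likelihood test with Benjamini-Hochberg adjustment, and 0.0419 without hybrid 1, the 1 setting that called it, within a range of 0.0419 to 0.511 over the alternatives.

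Igf2bp2 (chr16:22059009-22163299, minus strand), the member of the family that persists in many adult tissues, had 73.7, 35.8 and 33.3 CPM in hybrid, 25.4, 36.3 and 53.7 CPM in CAST, and 62.8, 81.7 and 65.0 CPM in 129 libraries. Hybrid 1 lay inside the 129 range and the other 2 hybrid libraries below it. Its log2 fold change was -0.55 in hybrid against 129 (95% interval -1.49 to 0.39) and -0.86 in CAST against 129 (-1.80 to 0.09).

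Igf2bp3 (chr6:49085223-49214957, minus strand), an oncofetal member that is low in most adult tissues, had 60.8, 17.3 and 16.1 CPM in hybrid, 8.26, 18.98 and 35.1 CPM in CAST, and 58.1, 82.0 and 52.2 CPM in 129 libraries. The CAST mean of 20.8 ± 13.5 CPM stood against 64.1 ± 15.8 CPM in 129 (SD, n = 3 each), the largest ratio of the 3, 3.09-fold. In CAST against 129 the log2 fold change was -1.62 (95% interval -3.08 to -0.16, adjusted p = 0.296 in edgeR's quasi-likelihood test with Benjamini-Hochberg adjustment). Of its exon bases 18.7% lie antisense to Malsu1, and since the strand setting of the counts is not given, reads of the 2 genes cannot be told apart there.

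Each of the 3 genes had another of the 3 as its closest member. Igf2bp1 and Igf2bp2 differed by a root mean square of 0.444 in centred log2 CPM over the 9 libraries, and Igf2bp3 and Igf2bp1 by 0.465. The median difference from all genes was 1.01 for Igf2bp1, 0.834 for Igf2bp2 and 1.17 for Igf2bp3. All 3 are long, with 9682, 7402 and 8159 exon bases in that order, and the part of exon length in this likeness was not tested. Per kilobase, Igf2bp2 led in every line, with 6.43 ± 3.06 CPM per kb in hybrid, 5.20 ± 1.93 in CAST and 9.43 ± 1.40 in 129 (SD, n = 3). Igf2bp1 held 17.7 ± 2.12% of the summed Igf2bp reads per kb in hybrid, 27.2 ± 1.33% in CAST and 25.3 ± 3.02% in 129, with the hybrid wholly below both, a share that was not tested. The IGF2BP genes, like Igf1r, were at levels per kb far under those of Igfbp2, Igfbp3, Igfbp5 and Igfbp7 in every line.

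For each member the tested genes with the most similar profile over the 9 libraries were found, among 11661 genes with a mean of at least 5 CPM. Igf1r was closest to Pign and Rest, at root mean square differences of 0.156 and 0.230 in centred log2 CPM, where the median over all genes was 1.54. Igf2bp1 was closest to Sec24a and Serp1 (0.207 and 0.208), Igf2bp2 to Nup98 and P4hb (0.131 and 0.166) and Igf2bp3 to Bmper and Hykk (0.243 and 0.261). Igfbp3 was closest to Etfbkmt (0.204), Igfbp4 to Sfrp2 and Loxl3 (0.255 and 0.334), Igfbp6 to Copz2 and Myl12a (0.407 and 0.417) and Igfbp7 to Fkbp7 and Gypc (0.281 and 0.316). Igfbp2 was closest to Ucp2 and Arhgef19 (0.386 and 0.415), and Igfbp5 to Gm7694 and Aqp4 (0.479 and 0.510). With the length trend removed from each library, Pign, Etfbkmt, Loxl3, Gm7694, Aqp4, Fkbp7 and Hykk stayed among the 2 closest of their member, and the other neighbours named here did not.

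The rest of the pathway was counted from lists of known genes. Of the ligands, Igf1 had 445, 228 and 18.4 CPM in hybrid, 27.9, 68.0 and 72.0 CPM in CAST, and 524, 220.5 and 59.9 CPM in 129 libraries, and was not called in any comparison. Of 11 measured IGFBP proteases and their inhibitors the edgeR test called 0 in each comparison, with 2 at an unadjusted p under 0.05 in CAST against 129 (1 called by DESeq2, 0 by limma-voom), where 14.6% of all genes had such a p, and 1 in hybrid against 129, where 22.2% did. Mmp2 and Plat, the most abundant, averaged 206 and 230.3 CPM in hybrid, 376 and 268 CPM in CAST, and 421 and 252 CPM in 129. Of 3 tested other genes with an IGFBP domain 0 were called by any of the 3 tools, with 1 at an unadjusted p under 0.05 in each comparison with 129, against the same 14.6% in CAST and 22.2% in hybrid. Among these, Htra1, a secreted protease, averaged 171 CPM in hybrid, 96.8 CPM in CAST and 219 CPM in 129, and Igfbpl1 averaged 5.83, 11.7 and 4.01 CPM in the same lines.

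Of 41 measured genes of receptor signal transduction, from the adaptor proteins to AKT, mTOR and the MAP kinases, the edgeR test called 1, lower in hybrid against 129, where it called 1.6% of all genes lower and 5.41% higher. DESeq2 called 1 of the 41 in each of the 4 comparisons, and limma-voom 1 in hybrid against 129 and 0 in the others. The edgeR call was Grb10. Grb10, an imprinted gene for an adaptor that dampens signalling by the insulin and IGF1 receptors, had 81.2, 32.8 and 106 CPM in hybrid, 34.9, 84.3 and 80.0 CPM in CAST, and 384, 458 and 259 CPM in 129 libraries. It fell in the hybrid relative to 129, by 2.33 ± 0.54 (SE) on the log2 scale (adjusted p = 0.0319 in edgeR's quasi-likelihood test with Benjamini-Hochberg adjustment). That call was kept in 4 of 10 settings that left out libraries, with adjusted p-values up to 0.124. In CAST against 129 the log2 fold change was -2.47 ± 0.54, with an adjusted p of 0.077 in the same test, and the libraries did not overlap.

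Of 14 measured let-7 regulated and oncofetal genes, Hmga1, a chromatin protein gene of embryonic cells, was the 1 called by the edgeR test, which called 0.526% of all genes lower in CAST against 129 and 4.41% higher in hybrid against CAST. DESeq2 called 1 of the 14 in each of the 4 comparisons, and limma-voom 1 in each comparison between lines and 0 against the midparent. Hmga1 had 7.71, 21.7 and 11.9 CPM in hybrid, 1.86, 0.730 and 0.932 CPM in CAST, and 38.1, 39.1 and 38.6 CPM in 129 libraries, and fell in CAST relative to 129 by 5.06 ± 0.55 (adjusted p = 0.00556) and rose in the hybrid relative to CAST by 3.57 ± 0.52 (adjusted p = 0.00337) on the log2 scale in the same test. Both calls were kept in all 10 settings that left out libraries. A second locus, Hmga1b, has a near-identical transcript, so the split of reads between both is uncertain. How CAST reads that differ from the mm10 reference were placed was not tested, for Hmga1 or for any other gene here.

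Of 22 measured partners and target RNAs of the IGF2BP proteins, Hnrnpu and Igf2 were called by the edgeR test, 1 in CAST against 129, 2 in hybrid against 129, 1 in hybrid against CAST and 1 against the midparent. In these comparisons DESeq2 called 2, 3, 2 and 1, and limma-voom 1, 2, 1 and 1. The edgeR test called 0.391% of all genes higher and 0.526% lower in CAST against 129, and 5.41% and 1.6% in hybrid against 129. It called 4.41% and 1.6% in hybrid against CAST, and 5.88% and 1.46% against the midparent. The 1 edgeR call in CAST against 129 and 1 of the 2 in hybrid against 129 were Igf2. The genes were followed for its difference, so its calls are no separate result. Hnrnpu, a nuclear RNA-binding protein found in IGF2BP1 complexes, had 677, 259 and 547 CPM in hybrid, 40.5, 107 and 90.1 CPM in CAST, and 81.9, 84.2 and 98.7 CPM in 129 libraries. It rose in the hybrid, by 2.49 ± 0.51 (SE) against 129 (adjusted p = 0.0164, kept in 6 of 10 settings that left out libraries), by 2.64 ± 0.51 against CAST (adjusted p = 0.0132, kept in 9 of 10) and by 2.56 ± 0.40 against the midparent (adjusted p = 0.00301, kept in 10 of 10), on the log2 scale in edgeR's quasi-likelihood test. The other target named for these proteins, H19, the noncoding neighbour of Igf2, had 279, 1800.1 and 331 CPM in hybrid, 744, 299 and 355 CPM in CAST, and 196, 86.7 and 69.2 CPM in 129 libraries. Both lines lay wholly above 129, with log2 fold changes of 2.78 ± 0.84 in hybrid against 129 (adjusted p = 0.0916) and 1.99 ± 0.81 in CAST against 129 (adjusted p = 0.306) in the same test.

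Of 13 m6A writers, erasers and readers, the class of readers to which the IGF2BP proteins belong, the edgeR test called 0, with 1 at an unadjusted p under 0.05 in each comparison with 129, against 14.6% of all genes in CAST and 22.2% in hybrid. DESeq2 called 1 of them, in hybrid against 129, and limma-voom 0. Fto and Ythdf1, the most abundant, averaged 103 and 108 CPM in hybrid, 162 and 90.2 CPM in CAST, and 133 and 108 CPM in 129 libraries.

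The larger lists' median log2 fold changes in hybrid against 129, beside 0.02 over all genes, were -0.99 for the proteases and their inhibitors, -0.42 for signal transduction, -0.86 for the let-7 regulated genes, -0.09 for the IGF2BP partners and targets and -0.50 for the m6A genes. In CAST against 129, beside 0.06 over all genes, they were -0.75, -0.26, -0.03, -0.11 and -0.34 for the lists in that order. The smaller lists went both ways. Medians of the 3 tested other IGFBP-domain genes were 0.54 in hybrid against 129 and 1.54 in CAST against 129. For the 3 tested receptor genes, Igf1r among them, they were -1.43 and -1.51. For the 2 tested ligands, Igf2 among them, they were -2.20 and -4.09. Of the 11 protease and inhibitor genes 10 were negative in hybrid against 129 and 9 in CAST against 129, beside 49.2% and 46.6% of all genes.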

How the data were processed

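The authors deposited 1 table of counts, whole numbers of reads per Ensembl gene in 9 libraries. Reads were aligned with STAR to mm10, per the submitters' processing notes. Its version, the counter, the annotation and strandedness: not given in the sources used here. For every gene, the placing of CAST and hybrid reads that differ from the mm10 reference was not tested. Per the labels' protocols, libraries were made from poly(A) RNA by random priming. Whole numbers and unequal column totals show no normalization in the deposited counts.

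Symbols, coordinates, exon lengths and transcript sequences come from GENCODE M21 (GRCm38, the build also called mm10), and 27030 of 27071 IDs had a symbol. Genes were filtered with filterByExpr (minimum count 10, minimum total 15) and scaled with TMM. All 9 libraries entered 1 robust quasi-likelihood fit (edgeR 4.0.16, R 4.3.3), with Benjamini-Hochberg adjustment over 14839 genes, a threshold of 0.05, and no block. The code was tested on simulated data. DESeq2 1.42.0, limma-voom (limma 3.58.1), RLE scaling, no filter, a replicate block, fits to only the compared lines, leaving out libraries and an exon length offset (lowess span 0.3) were alternatives. Principal transcript length in place of exon length was added after seeing the data. Intervals are 95%. Levels are CPM, log2 values used a prior count of 2, and the precision of a low gene is limited by its count. The 10 members are all named. Beside them Igf2, Igf1, Igf2r, Insr and H19 are named, and in each pathway list every gene called or, with none called, the 2 most abundant. The members and lists were chosen with earlier results of these data known. Listed genes outside the matrix, 8 in all, and 2 labelled CAST samples were not analysed here. 1 gene among those most similar to a member is not reported here.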

Additional observations from a re-analysis of the deposited data

How the results depend on the processing

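Over all genes, edgeR's quasi-likelihood test called 136 genes in CAST against 129, 1041 in hybrid against 129, 891 in hybrid against CAST and 1089 in hybrid against the midparent. In the same order DESeq2 called 939, 2100, 1597 and 1790. In CAST against 129, limma-voom called 263, leaving out CAST 1 and hybrid 2 together gave 230, and the exon length offset gave 286. Leaving out 1 library at a time gave 26 to 157 in CAST against 129, 522 to 1717 in hybrid against 129 and 884 to 1850 in hybrid against the midparent.

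Equal replicate numbers are not stated to pair libraries: deviations of same-numbered libraries correlated above 0.1 in 2 of 9 pairs (range -0.72 to 0.49), and 3 of 9 libraries matched best with their own number. With the replicate block the calls were 6 in CAST against 129, 561 in hybrid against 129 and 526 in hybrid against CAST.

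The count of members called was 0 in each comparison and rose to 1 in 2 settings. These were DESeq2 in hybrid against CAST, which called 1597 genes over all, and without hybrid 1 in hybrid against 129, which called 1120. Leaving out 1 library at a time gave 0 to 1 in hybrid against 129. Of 670 member fold changes and settings compared, 40 had the opposite sign, in each case for a member not called. Without CAST 1 and hybrid 2, the log2 fold change was 0.056 for Igf1r and 0.14 for Igfbp5 in CAST against 129, -0.062 for Igfbp3, -0.91 for Igfbp6 and -0.80 for Igfbp7 in hybrid against 129, and -0.0075 for Igfbp7 against the midparent. With the exon length offset it was -0.10 for Igfbp3, -0.85 for Igfbp6 and -0.90 for Igfbp7 in hybrid against 129, and -0.42 for Igfbp2, -0.091 for Igfbp7, 0.12 for Igf2bp2 and 0.029 for Igf2bp3 against the midparent. Igfbp5 had 0.37 with the replicate block in CAST against 129 and 0.36 with limma-voom in hybrid against CAST.

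Leaving out 1 library at a time, the log2 fold change in CAST against 129 ran from -1.22 to 0.062 for Igf1r and from -0.90 to 0.80 for Igfbp5. In hybrid against 129 it ran from -0.10 to 0.67 for Igfbp3, from -2.03 to 0.24 for Igfbp5, from -0.91 to 1.40 for Igfbp6 and from -0.80 to 0.83 for Igfbp7. In hybrid against CAST it ran from -1.93 to 0.020 for Igf1r, from -1.14 to 0.083 for Igf2bp1, from -0.17 to 0.62 for Igf2bp2 and from -0.33 to 1.20 for Igf2bp3. Against the midparent it ran from -0.21 to 0.47 for Igfbp2, from -0.34 to 1.26 for Igfbp7, from -0.61 to 0.071 for Igf2bp2 and from -1.16 to 0.10 for Igf2bp3. The cause of these changes was not tested. Igf2 kept its sign in 67 settings, with 1 call lost, without CAST 2, and 1 gained, with DESeq2 in hybrid against CAST. Of 120 levels none moved by 1 SD, and 3 of 21 shares and ratios did with principal transcript length, among them Igfbp2 in 129 at 26.2% in place of 21.0%. Within-line spreads reached 91.2-fold with 3 libraries a line.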
